A study of Arabidopsis thaliana with 8 samples.

Results

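GNC binding in rosette leaves of *Arabidopsis thaliana* was described by 4734 nuclear ChIP-seq peaks. They were the peaks of the first GNC list that overlapped a peak of the second GNC list by at least 1 bp, and they made up 82.4% of the 5744 nuclear peaks of list 1 and 82.8% of the 5721 of list 2. The 4 deposited lists of the study, 2 for GNC and 2 for its paralog CGA1, held 16322 peaks in all. The chromatin came from rosette leaves of plants 3 weeks old in the Col-0 ecotype, grown in long days, of a line that overexpressed *GNC* with a c-myc tag. DNA precipitated with an anti-myc antibody (IP, 2 samples) was compared with sonicated chromatin kept back before precipitation (INPUT, 2 samples). The promoter that drove the transgene was not given in the sources used here, all 4 samples carried the tagged transgene, and an untagged line or IgG precipitation was not analysed here. Peak lists hold no expression values, so the leaf label could not be compared with marker genes.

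GNC is a GATA factor, a family of zinc finger proteins that bind DNA at short sites with the core GATA. It is induced by nitrate and light, and with CGA1 it is known for promoting chlorophyll synthesis, chloroplast development and starch formation and for effects on flowering and on the responses to cytokinin, gibberellin and auxin. A ChIP-seq peak marks a place where the tagged protein was found more often than the INPUT predicts, and it does not show that the nearby gene responds.

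Each peak carried a score from the MACS peak caller, which is −10 times the log10 of the p-value of IP against INPUT. A higher score means a smaller p-value and is not a measure of fold enrichment. Strength, strong and weak refer below to this score alone. A protein-coding gene counted as bound if a shared peak was centred in its promoter window, which ran from 1 kb before to 100 bp after the transcription start site (TSS), or inside the gene. By this rule 3863 of 27444 protein-coding genes were bound, 14.1% of them. The promoter window held a peak centre at 1466 genes (5.34%). The gene past its first 100 bp held one at 2522 genes (9.19%), since centres in those 100 bp counted as promoter. Separate peaks of both kinds lay at 125 genes. A peak with a score of at least 100 in both lists lay at 427 genes, 1.56% of all.

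The windows below show the DNA under promoter peaks of 9 genes, so that the sites can be read beside the scores. They come from 16 such windows that lie outside every annotated gene, and both the 16 and the 9 were picked for the role and score of the gene after scores and sites had been seen. Each is the 121 bp around the peak centre, from RefSeq's TAIR10.1 sequence, whose nuclear chromosomes have the lengths of TAIR10. They are written 5′ to 3′ on the strand of the gene, and capitals mark GATA, its reverse complement TATC, and GATC.
PHYB, chr2:8138821-8138941, plus strand: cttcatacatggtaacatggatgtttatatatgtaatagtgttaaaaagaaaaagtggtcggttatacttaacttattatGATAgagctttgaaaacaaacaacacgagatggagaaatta
COL4, chr5:8588556-8588676, plus strand: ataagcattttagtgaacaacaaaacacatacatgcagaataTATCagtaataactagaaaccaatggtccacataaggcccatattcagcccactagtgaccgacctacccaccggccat
RR10, chr4:15447640-15447760, minus strand: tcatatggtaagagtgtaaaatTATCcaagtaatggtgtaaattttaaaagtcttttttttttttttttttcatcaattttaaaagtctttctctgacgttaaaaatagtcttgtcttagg
CRF2, chr4:12375859-12375979, plus strand: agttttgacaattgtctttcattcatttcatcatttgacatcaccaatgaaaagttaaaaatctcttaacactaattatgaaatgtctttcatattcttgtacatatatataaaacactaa
NRT2.4, chr5:24443721-24443841, plus strand: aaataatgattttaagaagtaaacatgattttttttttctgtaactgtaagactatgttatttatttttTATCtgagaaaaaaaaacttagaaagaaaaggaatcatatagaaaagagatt
APL3, chr4:18259234-18259354, plus strand: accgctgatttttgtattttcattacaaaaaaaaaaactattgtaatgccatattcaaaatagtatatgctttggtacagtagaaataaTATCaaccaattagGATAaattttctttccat
BZR1, chr1:28185178-28185298, plus strand: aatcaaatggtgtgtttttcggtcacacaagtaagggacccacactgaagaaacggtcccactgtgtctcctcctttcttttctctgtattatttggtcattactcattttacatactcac
PME44, chr4:16022008-16022128, plus strand: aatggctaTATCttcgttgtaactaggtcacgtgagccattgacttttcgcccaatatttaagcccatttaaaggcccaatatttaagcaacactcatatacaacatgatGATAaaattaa
SNC1, chr4:9505999-9506119, minus strand: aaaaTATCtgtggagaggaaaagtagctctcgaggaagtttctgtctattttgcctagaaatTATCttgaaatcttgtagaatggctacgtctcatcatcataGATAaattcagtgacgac

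The window at *SNC1* held 3 GATA cores on either strand and those at *APL3* and *PME44* held 2. The windows at *PHYB*, *COL4*, *RR10* and *NRT2.4* held 1 each, and those at *CRF2* and *BZR1* held none. Over all 16 windows, 10 held a GATA core and 1, at *ELIP1*, held GATC, which none of the 9 printed windows did. The *BZR1* window held GGNCCCAC, a site known for TCP factors, in 2 places, and the *PME44* window held CACGTG, the G-box bound by bHLH and bZIP factors. These matches describe the letters in the window and are not measured binding sites.

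The strength of a peak was close in the lists. All 4734 shared peaks had the same start and end in both, so no member lay near the edge of the overlap rule, and the lists were treated as 1 sample. The study's methods describe a peak call for each replicate, yet the shared peaks had identical intervals in both lists. Whether the lists also share reads could not be told from the methods. The overlap of the lists and the likeness of their scores are therefore no measure of replicate error. The score ranged from 50 to 556 in list 1 with a median of 69.5, and from 50.03 to 646 in list 2 with a median of 69.1. The middle 50% of the peaks lay between 59.0 and 85.7 in list 1 and between 58.6 and 85.4 in list 2, so that most peaks were not far above the minimum of 50. Across the 4734 peaks, which share the same intervals, Pearson's r of the scores was 0.859 and Spearman's rho was 0.774. The scores differed by at most 10 units at 3243 peaks (68.5%), and 472 peaks (9.97%) scored at least 100 in both lists. The peaks outside the overlap, 1010 in list 1 and 987 in list 2, had median scores of 54.75 and 55.35, and none of them reached 100. The median length of a shared peak was 383 bp, and the rank correlation of length with mean score was 0.0750.

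**Figure D1:**
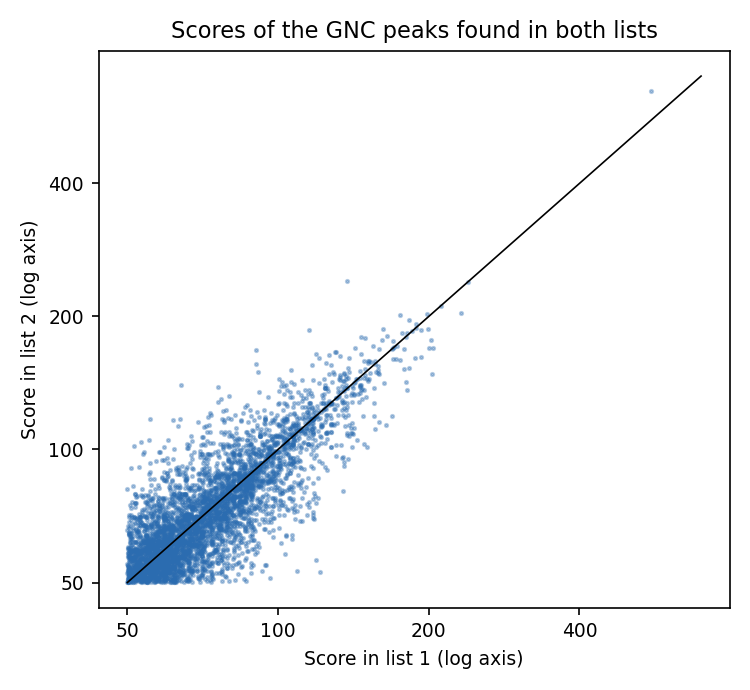
Score of each of the 4734 shared GNC peaks in list 1 (x axis) and list 2 (y axis), both on log axes, with the line of equal scores. Most points lie between 50 and 100 near the line, and a single peak lies above 500 in both lists.

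The ratio of the score in list 2 to that in list 1 ran from 0.435 to 2.19. The lowest value belonged to a peak at no protein-coding gene, with 121 and 52.8. A peak at *FBH4*, which encodes a bHLH factor that activates *CONSTANS*, scored 109 in list 1 and 53.0 in list 2, a ratio of 0.486. In the opposite direction, the peak with the highest ratio scored 63.9 and 139.9 at *BETA-OHASE 2*, a beta-carotene hydroxylase of the xanthophyll pathway, and at the neighbouring AT5G52580. A peak at AT2G35200, of unknown function, scored 55.6 and 117. No read counts accompany the lists, so the depth behind these values is unknown.

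The peaks were spread over the chromosomes at 39.0 to 41.1 per Mb. A promoter window held 28.3% of the peak centres (Wilson 95% interval 27.0 to 29.6%, which like all intervals here covers counting error only), while such windows cover 23.2% of the nuclear genome. A further 48.1% (46.7 to 49.5%) lay inside a gene and in no promoter window, against 44.95% of the genome, and 23.6% (22.4 to 24.85%) lay at no protein-coding gene, against 31.9%. The 3 classes had nearly equal strength, with median scores in list 1 of 69.67, 69.85 and 68.34. The promoter share was thus 1.22 times the space that promoter windows cover, and most peaks were elsewhere.

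**Figure D2:**
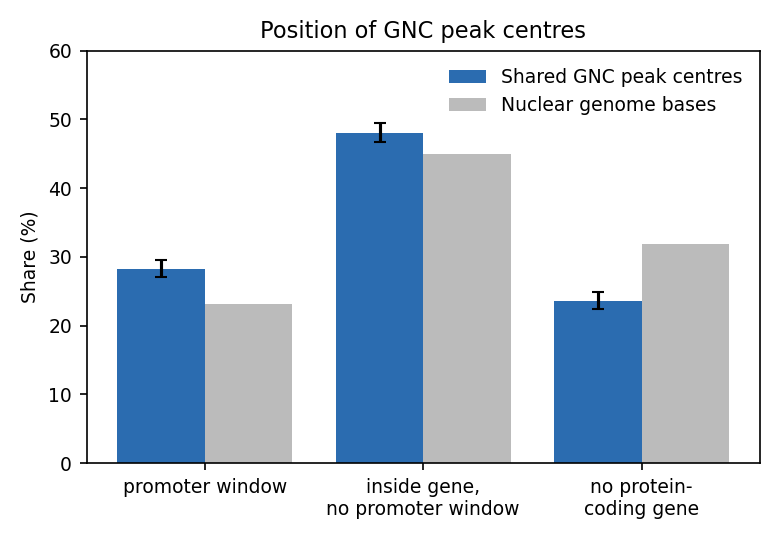
Share of the 4734 shared peak centres (blue, with Wilson 95% intervals) and of the nuclear genome (grey) in the promoter window, inside a gene only, and at no protein-coding gene. The peak share was 28.3% against 23.2% in promoter windows and 23.6% against 31.9% away from protein-coding genes.

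Of the 2277 peaks inside genes only, 1148 were centred in a coding exon, 715 in an intron, 245 in a 3′ UTR and 169 in a 5′ UTR. The space that each of these parts covers was not computed, so the counts show no preference for any part. Along the gene, the 2688 pairs of a gene and a peak inside it had 489 in the first of 5 equal parts. The later parts held 527 to 585 each, with 585 in the last. Centres in the first 100 bp of the gene counted as promoter (141 pairs) and are left out here. The first part is therefore undercounted and cannot be compared with the others. The 2688 pairs include peaks that also lay in the promoter window of another gene. Within the promoter window the counts per 100 bp rose from 114 pairs at the far end to a highest value of 162 between 200 and 100 bp upstream of the TSS. Longer genes offer more room, and the bound share rose with gene length from 7.47% in the shortest 25% of the genes to 21.5% in the longest 25%. This rise came from peaks inside genes, at 3.15% and 16.6%, since promoter binding was 4.50% and 5.56% in the same classes. Of the 1118 peaks at no protein-coding gene, 153 were centred in a pseudogene, and 341 lay within 1 kb downstream of a protein-coding gene. In 138 peaks the centre lay in the promoter windows of genes on opposite strands, so that a single peak counted for both.

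The strongest promoter peaks lay at genes of unlike roles. The highest, 556 in list 1 and 646 in list 2, lay upstream of AT2G01023, an uncharacterized gene near the end of chromosome 2. The next, 239 in both lists, lay 314 bp upstream of AT1G37010, annotated as a spindle pole body component. A peak of 193 and 186 stood between *PME44*, a pectin methylesterase that modifies the cell wall, and *SLOMO*, an F-box protein known for its part in organ initiation, in whose promoter window it lay 838 bp upstream. The peak at *SNC1*, an immune receptor of the TIR-NBS-LRR class, scored 169 in both lists and was centred 87 bp upstream. At AT4G09530, a SAUR-like gene of the auxin-responsive family, the scores were 172 and 171 with the centre in the 5′ UTR. AT1G11710, a pentatricopeptide repeat protein of the kind that processes organelle RNA, had scores of 169.7 and 176 at 492 bp upstream. AT5G48390, a relative of the yeast meiosis gene *SPO22*, scored 171 in both. The strongest peak inside a gene with none in its promoter window scored 212 in both lists in the 5′ UTR of AT3G23450, which is uncharacterized. *SPX2*, a protein of phosphate sensing, followed among named genes with 189 and 192 in a coding exon, and *SSI2*, a plastid stearoyl-ACP desaturase, had 193 and 162 in an intron.

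Nitrogen assimilation had the highest bound share of the 66 function lists, which were made by a search of gene names and products in the annotation. The share and interval of all 66 were computed and none was tested. Of its 29 genes 10 were bound (34.5%, interval 19.9 to 52.7%), against 14.1% of all protein-coding genes, and 4 were bound in the promoter window (13.8% against 5.34%). The median length of these genes was 3114 bp against 2078 bp for all genes, and per Mb of gene and 1 kb upstream they held 95.6 peaks against 44.9. *NIA1*, the cytosolic nitrate reductase that makes nitrite, carried 3 shared peaks. The peak centred 6 bp upstream of its TSS scored 93.9 in list 1 and 115 in list 2, that in a coding exon scored 62.9 and 74.1, and that in an intron scored 91.4 and 118. All 3 were thus higher in list 2. *ASN3*, an asparagine synthetase, had an intron peak of 124 and 138 and a weaker one of 51.1 and 62.7 in its 3′ UTR, and AT2G03667, of the same family, had 169.9 and 160.15 in a coding exon. *GLU1*, the ferredoxin-dependent glutamate synthase of photorespiration and ammonium assimilation, scored 72.1 and 53.1, and *GDH2*, a glutamate dehydrogenase, scored 60.0 and 55.7 with the centre 1 bp from its TSS. *CNX2* and *CNX3*, of molybdenum cofactor synthesis, scored between 51.0 and 65.5, and *GLA1*, in this list by its product name, is a gene of folate synthesis.

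Nitrate and peptide transporters were bound in 9 of 39 cases (23.1%, 12.65 to 38.3%). *NRT2.4*, a high-affinity nitrate transporter, had a promoter peak of 74.4 and 85.1 whose window is printed above. *NRT2.5*, of the same family, scored 67.2 and 61.85 in an intron, and *NRT1.7*, which moves nitrate out of old leaves, scored 65.3 and 65.1 in a coding exon. *NRT1.8* and *NRT1.9* had promoter peaks at 59.5 in both lists and at 61.35 and 57.7. The strongest of the list lay at *OPT1*, an oligopeptide transporter, with 119 and 75.7.

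Genes of chlorophyll and haem synthesis were bound at the share of all genes, 5 of 35 (14.3%, 6.26 to 29.4%), and 4 of the 5 peaks lay in promoter windows (11.4%, 4.54 to 25.95%, which holds the 5.34% of all genes). With a promoter window from 500 bp upstream 2 of the 35 were bound (5.71% against 12.04%), and with the gene of the nearest TSS alone 3 (8.57% against 12.3%). *HEMC*, which joins porphobilinogen units into the tetrapyrrole chain, had a peak of 134 and 123 at chr5:2665533-2666418, centred 149 bp upstream. *CHLM*, the magnesium-protoporphyrin methyltransferase of the chlorophyll branch, scored 117 and 115 at 712 bp upstream, where the 121 bp around the centre overlapped another annotated gene. *PORA*, a light-dependent protochlorophyllide oxidoreductase of etiolated seedlings, differed more between the lists, with 65.7 and 100.57 in an intron. *HEME2*, a uroporphyrinogen decarboxylase, scored 58.0 and 55.7, and *SIRB*, which completes sirohaem, scored 76.1 and 74.3. The *HEMC* peak was also centred in the 5′ UTR of *YLS8*, a neighbouring gene for a U5 splicing factor, so that it cannot be given to either gene from its position.

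Light-harvesting and photosystem proteins were bound in 13 of 72 cases (18.1%, 10.9 to 28.5%). None of the 72 had a peak of at least 100 in both lists, where the interval, 0 to 5.07%, holds the 1.56% of all genes. *LHCB5*, a minor antenna protein of photosystem II, scored 84.5 and 75.8 in its 5′ UTR, and *PSAK*, a subunit of photosystem I, scored 84.35 and 83.3 at 23 bp upstream. *ELIP1*, an early light-induced protein of photoprotection, scored 88.5 and 78.4, and *NPQ4*, the PsbS protein of energy quenching, scored 57.8 and 74.9 at 891 bp upstream. Plastid transcription, division and import genes were bound in 8 of 59 cases (13.6%). *TOC75-III*, the pore of the outer envelope import machinery, was the strongest with 164 and 114 in a coding exon, and *SIGC*, a sigma factor of the plastid RNA polymerase, scored 74.8 and 98.7 in its promoter window. *PTAC7*, a protein of plastid transcription, had only an intron peak of 53.3 and 61.9, and *CPSUFE*, of plastid iron-sulfur assembly, scored 60.35 and 53.2 at 3 bp upstream. Carbon fixation and photorespiration genes stood at 9 of 53 (17.0%), with *GLDP1* and *GLDP2*, which encode the P-protein of glycine decarboxylase, at 93.8 and 103 and at 61.2 and 60.75.

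Starch and sucrose metabolism genes were bound in 14 of 75 cases (18.7%, 11.5 to 28.9%), of which 11 had the peak inside the gene. *BAM7*, a nuclear protein related to beta-amylase, scored 151 and 143 in a coding exon. *DPE2*, which uses maltose from starch breakdown, scored 75.4 and 68.7 in its 5′ UTR. *APL3*, a large subunit of ADP-glucose pyrophosphorylase, the first step of starch synthesis, had 180.17 in both lists at 253 bp upstream; its product name kept it out of this list. *APL1* and *ADG1*, other subunits of the same enzyme, scored 65.0 and 72.3 in the promoter window and 68.45 and 69.95 in a coding exon. Sugar transporters stood at 15 of 80 (18.8%), with *SUT2*, a sucrose transporter, at 153 and 149 in its 5′ UTR and a second peak at 52.6 and 52.8. *SWEET2* and *SWEET16*, sugar carriers of the vacuole, scored 88.6 and 78.1 and 67.6 and 56.9 in promoter windows.

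Photoreceptor and clock genes had the second highest share, 20 of 70 (28.6%, 19.3 to 40.1%), with 10 in promoter windows (14.3%) and 66.8 peaks per Mb. *PHYB*, the main red light receptor of green plants, had a promoter peak of 124 and 138 centred 875 bp upstream, and *PHYD*, its close relative, scored 55.2 and 53.2. *PHOT1*, a blue light receptor of phototropism, scored 60.2 and 93.4 at 465 bp upstream. Of the light signalling genes, *COP1*, a ubiquitin ligase that represses light responses, scored 81.1 and 73.3, and *PIL1* and *PIF7*, bHLH factors of shade growth, scored 71.5 and 85.8 and 72.8 and 80.8, all inside the gene. The clock genes *PRR3* and *CCA1* differed in strength, at 159 and 115 in a 5′ UTR and at 53.95 and 53.7 in a 3′ UTR. *COL4* and *COL9*, relatives of *CONSTANS*, scored 89.2 and 98.45 and 95.8 and 65.1 in promoter windows. *EPR1*, a MYB-like clock factor outside this list, scored 70.29 in both lists at 232 bp upstream. Some members were taken in by a product name alone, such as *PAP2* (AT4G29080), a phytochrome-associated Aux/IAA protein, at 100.51 in both lists.

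Flowering regulators were bound in 8 of 43 cases (18.6%, 9.74 to 32.6%), with 6 in promoter windows (13.95% against 5.34%). With a promoter window from 500 bp upstream the list had 5 bound (11.6% against 12.04% of all genes). *REF6*, a histone demethylase that removes H3K27 methylation, scored 104.16 and 103.97 in its 5′ UTR, and *FWA*, a homeobox gene whose ectopic expression delays flowering, scored 91.46 in both. *AGL20*, better known as *SOC1*, a MADS-box integrator of flowering, was not bound by this rule, since the nearest peak centre was 3477 bp upstream of its TSS. The study, by contrast, names *SOC1* as a common target of GNC and CGA1, and why the results differ was not tested. Of the other MADS-box genes, 15 of 122 were bound (12.3%), with *AGL6*, a flower meristem gene, at 146 and 139 and *AGL24*, which promotes flowering, at 90.5 and 92.8, both in the 3′ UTR.

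Genes of cytokinin metabolism and signalling were bound in 11 of 54 cases (20.4%, 11.8 to 32.9%). A peak of at least 100 in both lists lay at none of the 54, and its interval of 0 to 6.64% holds the 1.56% of all genes. *RR10*, given below, has such a peak but is not among the 54. *CKX7*, an oxidase that degrades cytokinin, scored 100.3 and 81.8 in an intron, and *CRF2*, a cytokinin response factor, scored 94.0 and 69.45 at 203 bp upstream. *CGA1*, the paralog of *GNC*, had a coding exon peak of 74.9 and 82.0 centred 502 bp after its TSS, with no shared peak centred in its promoter window. The study, however, reports binding of GNC at the *CGA1* promoter by ChIP-qPCR, and why the results differ was not tested. *GNC* itself had no peak, the nearest being 17564 bp away. *GATA20* and *GATA26* were the other bound genes of the 30 GATA factors, at 65.9 and 69.5 and at 59.1 and 54.9. When every peak of list 1 counted, 8 of the 30 were bound, and 5 when every peak of list 2 did. Response regulators and GARP factors, which carry and execute the cytokinin signal in part and in part belong to the clock, were bound in 9 of 35 cases (25.7%, 14.2 to 42.1%). *RR10*, a type-B regulator that activates cytokinin-responsive genes, scored 122 and 133 at 658 bp upstream, and *RR12*, of the same type, scored 57.6 and 64.7 in a coding exon. The type-A regulators *ARR4*, *RR5* and *ARR6*, which dampen the signal, had scores of 69.6 and 82.1, 56.8 and 50.3, and 72.7 and 86.5.

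**Figure D3:**
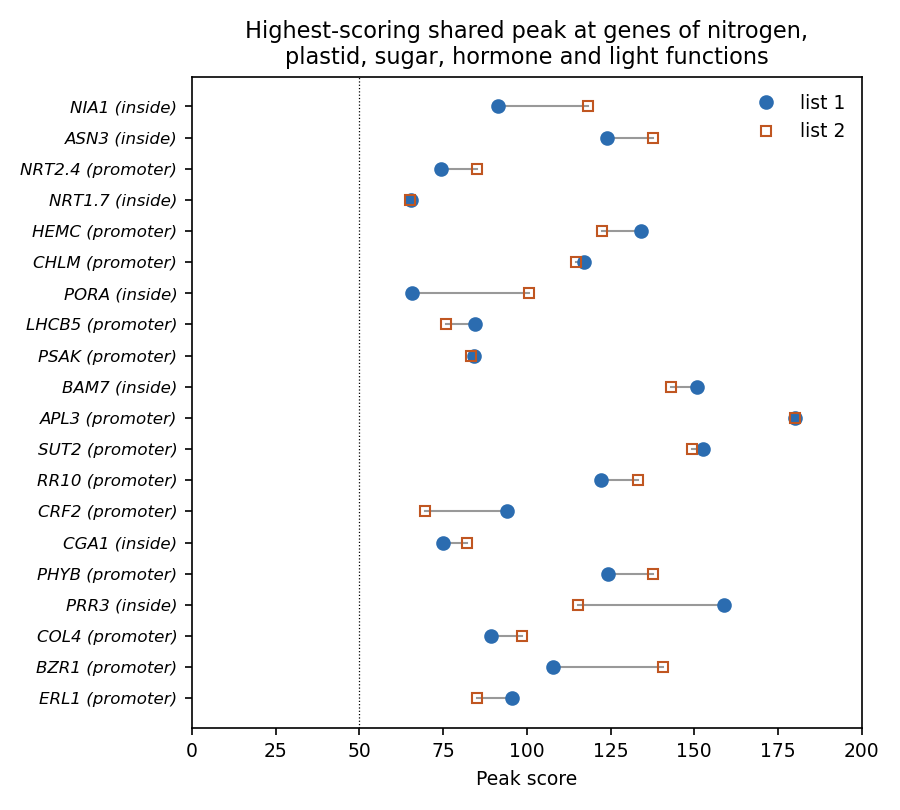
Score of the strongest shared GNC peak at 20 genes, picked for their role after their values were seen, in list 1 (blue circles) and list 2 (orange squares), with the minimum score of 50 dotted and the peak's position in brackets. *APL3* is highest at 180.17 in both lists, and *PRR3*, *PORA* and *BZR1* differ most between them.

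Of the other hormone lists, the brassinosteroid pathway had 4 of 24 genes bound (16.7%). *BZR1*, a transcription factor at the end of the pathway, scored 108 and 141 at 266 bp upstream, and *BIM2*, a bHLH partner of its relative BES1, scored 109.7 and 114. *BRI1*, the receptor, was near the minimum with 50.04 and 57.2 in a coding exon. Gibberellin genes were bound in 7 of 36 cases (19.4%), with *GA3OX2*, which makes active gibberellin, at 61.1 and 58.7 and *RGL3*, a DELLA repressor, at 66.6 and 50.9. Abscisic acid genes stood at 5 of 51 (9.80%), led by *AAO3*, the last enzyme of synthesis, at 146 and 179.6 in an intron. That count rested on the overlap of the lists, since without list 2 it was 10 of 51 (19.6% against 16.9% of all genes), and with a promoter window from 500 bp upstream it was 3. In the auxin lists, 6 of 79 SAUR genes (7.595%), 3 of 24 auxin response factors and 2 of 25 Aux/IAA genes were bound. The search for Aux/IAA genes missed *PAP2* (AT4G29080), named above, which is bound and would add to that count. *SAUR15* and its neighbour AT4G38840, known as *SAUR14*, had their nearest peak centres 25459 and 24961 bp away. The study proposes both as targets of GNC or CGA1.

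Transcription factors as a group were bound at nearly the share of all genes, 223 of 1518 (14.7%, 13.0 to 16.6%), and with a similar share of strong peaks, 22 genes or 1.45% against 1.56%. The families differed in their counts. Homeobox factors had 25 of 118 bound (21.2%, 14.8 to 29.4%), with *HB5*, an HD-ZIP factor, at 121.95 and 121.81 in its 5′ UTR, and bZIP factors had 19 of 86 (22.1%, 14.6 to 31.95%), with *bZIP2* at 119.98 and 86.3 in its promoter window. TCP factors, known for the control of leaf growth and branching, had 6 of 24 (25%, 12 to 44.9%), among them *BRC1*, the branching repressor, at 147 and 130.3, *TCP9* at 127 in both lists, and *PTF1*, also known as *TCP13*, at 75.02 in both lists 628 bp upstream. GRAS factors had 9 of 36 (25%, 13.75 to 41.1%), with *PAT1*, which takes part in phytochrome A signalling, at 146 and 165 in a coding exon and *HAM4*, of the stem cell regulators, at 81.6 and 106 near its TSS. MYB factors had 38 of 263 (14.4%), bHLH factors 24 of 165 (14.5%), AP2/ERF factors 18 of 149 (12.1%), WRKY factors 9 of 77 (11.7%) and NAC factors 11 of 116 (9.48%). By mean score of the lists, the strongest peak of the family lists lay in a coding exon of *SPL14*, a squamosa promoter binding protein, at 156 and 159, and *LBD29*, a factor of lateral root formation, scored 96.8 and 71.35 at 111 bp upstream.

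In some of the larger lists a share above or below that of all genes went with gene length, and in others it did not. Protein kinases outside the receptor family had 124 of 704 genes bound (17.6%, 15.0 to 20.6%). Receptor-like kinases had 68 of 388 (17.5%, 14.07 to 21.6%), an interval that just holds the 14.08% of all genes. The median gene lengths of these kinase lists were 3074 and 3254 bp against 2078 bp for all genes. Their peaks per Mb, 45.9 and 44.9, were near the 44.9 of all genes, and so were their promoter shares of 5.26% and 6.19%. ABC transporters behaved likewise, with 21 of 94 bound (22.3%), a median length of 5168 bp, 42.7 peaks per Mb and 5.32% in promoter windows. At the other end, defensins and other small cysteine-rich proteins had 18 of 420 bound (4.29%, 2.73 to 6.67%), a median length of 530.0 bp and 26.7 peaks per Mb. F-box proteins had 84 of 782 bound (10.7%, 8.76 to 13.1%), but they are short, with a median of 1412 bp, and their 45.2 peaks per Mb were near those of all genes. Pectin enzymes of the cell wall had 24 of 264 bound (9.09%, 6.18 to 13.2%) at a median length of 2014 bp, close to that of all genes, with 32.5 peaks per Mb and 1.89% in promoter windows. Protein phosphatases had 15 of 141 bound (10.6%, 6.55 to 16.8%) and heat shock proteins and chaperones 25 of 243 (10.3%, 7.07 to 14.75%). Their median lengths were 2462 and 2264 bp, and both intervals hold the 14.08% of all genes. Ribosomal proteins stood at 37 of 343 (10.8%, 7.93 to 14.5%), RING and U-box ligases at 93 of 658 (14.1%) and NBS-LRR immune receptors at 35 of 204 (17.2%, 12.6 to 22.9%).

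In all, the interval lay above the share of all genes in 7 of the 66 lists, which were nitrogen assimilation, photoreceptors and clock, response regulators and GARP factors, bZIP, homeobox, ABC transporters and the protein kinases outside the receptor family. It lay below in 4 lists, which were F-box proteins, pectin enzymes, small cysteine-rich proteins, and uncharacterized proteins. Of the uncharacterized genes 308 of 3130 were bound (9.84%), but they are short, with a median of 985 bp. Their 45.1 peaks per Mb were near the 44.9 of all genes. The lists overlap in part and no set was tested, so these are descriptions of counts. When promoter windows alone were counted, nitrogen assimilation (4 of 29) and photoreceptors and clock (10 of 70) were the lists of the 7 whose interval still lay above the share of all genes, joined by flowering regulators (6 of 43) and stomatal development (3 of 18). Against the 5.342% of all genes, these promoter intervals start at 5.497% for nitrogen assimilation and 5.837% for stomatal development. They start at 6.556% for flowering regulators and 7.949% for photoreceptors and clock. The reciprocal overlap could change nothing, since the edges are identical. Under the 7 other alternatives nitrogen assimilation also lay above, and photoreceptors and clock did so under all of these but the score of at least 100. At that score TCP factors (2 of 24), the brassinosteroid pathway (2 of 24) and chlorophyll and haem genes (2 of 35) came in. Each rests on 2 genes, and the chlorophyll and haem interval starts at 1.581% against 1.556% of all genes. Nitrogen assimilation at that score also rests on 2 genes (2 of 29), with an interval from 1.912%. So do response regulators and GARP factors (2 of 35), with an interval from 1.581%. Some bound members were named above for their role after their values were seen, outside the rule on the highest scores: *GDH2*, *CNX2*, *CNX3*, *GLA1*, *NRT1.8*, *NRT1.9*, *NPQ4*, *APL1*, *ADG1*, *PHYD*, *PHOT1*, *COP1*, *PIL1*, *PIF7*, *CCA1*, *RR12* and *RR5*.

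**Figure D4:**
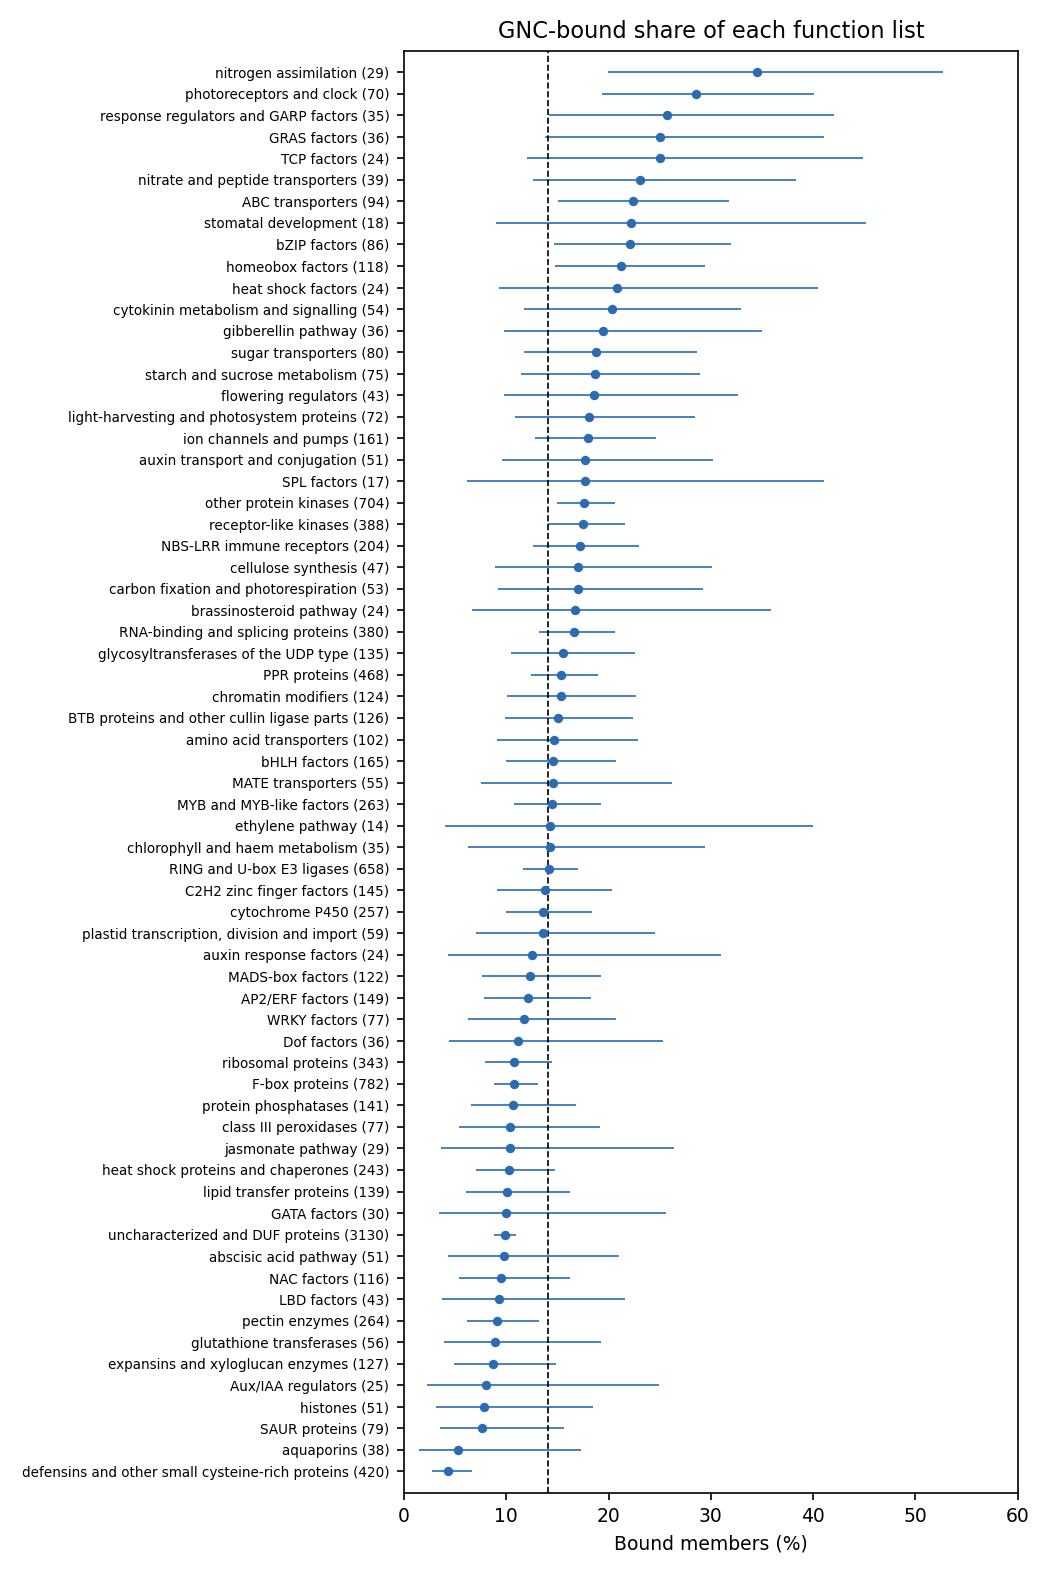
Bound share of each of the 66 function lists (points, with Wilson 95% intervals and the number of genes in brackets) beside the 14.1% of all protein-coding genes (dashed line). Nitrogen assimilation is highest at 34.5% and the small cysteine-rich proteins lowest at 4.29%.

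Stomatal development genes were few and had 4 of 18 bound (22.2%, 9.001 to 45.2%). *ERL1*, a receptor kinase that limits stomatal lineage divisions, had a promoter peak of 95.6 and 85.0 centred 6 bp upstream, and 3 EPF-like peptide genes had peaks between 63.9 and 89.9. *SPCH*, the bHLH factor that starts the stomatal lineage, was not bound, with the nearest peak centre 46944 bp away. The study reports *SPCH*, an earlier known target of GNC or CGA1, as also detected in its data. Other genes that the study examined also had no shared peak by this rule: *ERD6*, a sugar carrier of drought-treated plants, where the nearest centre lay 2203 bp upstream, *CYP71B23*, a cytochrome P450, at 2675 bp upstream, and *LHB1B1*, an antenna protein of photosystem II, at 7435 bp from its TSS. The study proposes *ERD6* as a target of GNC or CGA1 and takes *LHB1B1*, under another symbol, as specific to GNC. It used *CYP71B23* in ChIP-qPCR as a gene found in its data for both factors. Why the results for *LHB1B1* and *CYP71B23* differ was not tested. For *ERD6* and *SPCH* the study's text names GNC or CGA1 without saying which, so a difference is not shown. Of the remaining genes that the study names, AT3G27090 and AT3G56060 had promoter peaks of 71.5 and 60.7 and of 75.4 and 77.4, *AGL23* was near the minimum at 50.4 and 50.5, and *UMAMIT29*, an amino acid exporter, scored 72.1 and 68.3 in a coding exon. AT2G35380, a peroxidase, scored 58.8 and 61.1, also in a coding exon.

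More than 1 shared peak lay at 297 genes, and 3 or more at 11. *ATM*, the kinase of the DNA damage response and a very long gene, held 4, which scored 77.2 and 63.0, 63.4 and 63.0, 51.0 and 70.45, and 124 and 115 in the order of the gene. Besides *NIA1*, genes with 3 peaks were *ABCA2*, an ABC transporter, with scores from 58.6 to 115, and *SK41*, a shaggy-like kinase, with scores from 60.7 to 97.9. *XI-I*, a myosin that moves the nucleus, and *FDM3*, of RNA-directed DNA methylation, held 3 weaker peaks of 53.75 to 77.8.

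The sequence under the peaks was close to the genome at large. In windows of the peak centre with 100 bp on either side, GATA on either strand occurred in 81.4% of 4734 windows (80.2 to 82.4%), against 80.6% of 591719 consecutive windows of the nuclear genome. GATC, a palindrome, occurred in 48.9% (47.5 to 50.3%) against 48.9%. The longer site AGATAA, which contains GATA, was at 18.0% against 18.0%, and TGATAG, which also contains it, at 9.67% against 9.57%. At the 472 peaks that scored at least 100 in both lists GATA was at 80.7% and AGATAA at 15.5%. The 1339 peaks in promoter windows were set against 137205 windows over all promoters. There GATA was at 82.2% (80.1 to 84.2%) against 81.1%, GATC at 42.6% (39.95 to 45.2%) against 42.9%, and AGATAA at 19.5% (17.5 to 21.7%) against 19.6%.

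Some other sites differed more. CACGTG was at 3.15% of all peak centres (2.69 to 3.68%) against 2.21% of genome windows, and at 4.63% of the promoter peaks (3.63 to 5.89%) against 3.31% of promoter windows. At the 472 peaks of at least 100 in both lists it was at 2.97% (1.775 to 4.92%), an interval that holds the 2.21%. TGGGCC, a second kind of TCP-bound site that can overlap GGNCCCAC, was at 3.87% (3.35 to 4.45%) against 3.06%, and at 6.05% of the promoter peaks (4.89 to 7.46%) against 5.64%. The TCP site GGNCCCAC was found in 0.782% of all peak windows (0.568 to 1.07%) against 0.458% of genome windows, which is 37 peaks. Nearer the centre, with 50 bp on either side, it was at 0.254% (0.145 to 0.443%) against 0.2225%, so that the difference did not hold there, and with 250 bp on either side it was at 1.42% (1.12 to 1.79%) against 1.14%, which lies inside that interval. The E-box CANNTG, which includes CACGTG, was at 53.8% against 52.8% of genome windows. The repeats GAGAGAGA and CTTCTTCTT were at 3.17% and 3.70% against 3.20% and 3.49%, and AAACCCTA, a site of telomere repeats and ribosomal promoters, at 2.81% against 2.65%. The GC content at the peak centres averaged 35.6%, against 36.0% of genome windows.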

How the data were processed

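ChIP-seq samples were IP and INPUT of myc-GNC and myc-CGA1, 2 of each, and the GNC lists were used. Read trimming, alignment to TAIR10 by Bowtie2 (version 2.2.6 in the submitters' processing notes), removal of reads with more than 1 location and MACS peak calling, described as per replicate, were done by the authors. The deposited score is the authors' MACS value, −10 times the log10 of p, without further normalization, and depth was unknown. Labels of CGA1 INPUT samples mention GNC lists in their description, so titles were followed.

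Peak centres were placed on RefSeq TAIR10.1 genes, whose chromosome lengths equal those of TAIR10, with Python 3.11.15, pandas 2.3.3 and numpy 2.4.6, and Wilson intervals came from scipy 1.17.1. The steps were tested on simulated data. No chance test was run, since the lists were treated as 1 sample. The chloroplast peak of each list was left out. Members and lists were chosen with earlier results of these data known, and the lists, being text searches, hold some unrelated genes. Genes were named by rule: the 15 highest by a promoter peak, the 10 highest by a peak inside only, up to 5 per list, up to 10 with 3 or more peaks, genes the study names, and up to 3 extreme score ratios each way. Genes named outside the rule are listed in the text. Alternatives changed the score, overlap, window, peak edge and gene choice, or left out a list.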

Additional observations from a re-analysis of the deposited data

Results flagged for a closer look

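Each GNC list also held a chloroplast peak, outside the nuclear peaks compared here. It spanned positions 110292 to 114390 of the chloroplast genome and scored 147.34 in list 1 and 344.93 in list 2. It was the signal outside the main measurement. Peak lists of control samples were not analysed here, and what the peak comes from was not tested.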

How the results depend on the processing

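With a score of at least 100 in both lists the shared peaks came to 472 and the bound genes to 427, and the median score was 119.5 in each list. The shares at these peaks follow, with those of genome windows in brackets. GATC stood at 44.9% (48.9%), AGATAA at 15.5% (18.0%), TGATAG at 10.8% (9.57%), CACGTG at 2.97% (2.21%) and GAGAGAGA at 4.03% (3.20%). TGGGCC stood at 2.75% (3.06%), GGNCCCAC at 1.69% (0.458%), AAACCCTA at 2.33% (2.65%) and CTTCTTCTT at 4.66% (3.49%). The interval at these peaks held the genome share for each of these sites but GGNCCCAC, which was found at 8 peaks. With the promoter window alone 1466 genes were bound. A promoter window from 500 bp upstream held 16.9% of the peaks, and windows of all annotated genes held 33.6%. Motif windows with 50 bp on either side of the centre search fewer bases, and GATA then stood at 56.2%, GATC at 28.0%, AGATAA at 9.32%, TGATAG at 4.71%, CACGTG at 1.56%, CANNTG at 31.75%, GAGAGAGA at 1.48%, TGGGCC at 1.92%, GGNCCCAC at 0.254%, AAACCCTA at 1.39% and CTTCTTCTT at 1.90%. With 250 bp on either side these shares were 98.35%, 79.97%, 39.1%, 22.2%, 6.85%, 84.2%, 8.79%, 9.13%, 1.42%, 6.11% and 8.68%. In genome windows of the shorter and the longer width GATA was at 56.4% and 97.95%, and GATC at 29.1% and 79.45%. AGATAA was there at 9.35% and 39.2%, and CACGTG at 1.11% and 5.37%. Leaving out either list, so that every peak of the other counted, gave 5721 to 5744 peaks, 4613 to 4636 bound genes, 27.75 to 28.3% of peaks in promoter windows and median scores of 65.3 in list 1 and 65.6 in list 2. A median was said to move when it shifted by more than the gap between the medians of the lists, a limit chosen for this work. Other settings left the counts of peaks and bound genes within 1.5 times. Of the 7 function lists whose interval lay above all genes, 2 also did so with the stricter score, 2 with the promoter window alone, 5 without list 2 and 4 without list 1. No paired analysis was possible because the results come from no test and the lists were treated as 1 sample. The lists carry no read counts, so neither the depth behind a score nor its error can be given.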

Other observations

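The lists held many repeated score values. Of the 4734 shared peaks, 2958 in list 1 and 2894 in list 2 had a score that another shared peak also had, and the most frequent values were 88.28 in list 1, at 41 peaks, and 70.37 in list 2, at 43 peaks. The score was the same in both lists at 545 peaks, whose median score was 65.3 and median length 381 bp.

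Neighbouring shared peaks were within 2 kb of each other in 442 cases, while the median gap was 16.0 kb. The strongest peak at no protein-coding gene scored 232 in list 1 and 204 in list 2 at chr1:18296313-18296869, 3271 bp from the nearest protein-coding TSS, that of AT1G49435.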
